A study of Homo sapiens with 6 samples.

Results

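The genes described here are 10 genes that the ERK kinase pathway is known to switch on and that in turn limit or carry its signal. They are the dual-specificity phosphatase genes DUSP4, DUSP5 and DUSP6, the Sprouty genes SPRY1, SPRY2 and SPRY4, the Sprouty-related genes SPRED1 and SPRED2, and the PEA3 transcription factor genes ETV4 and ETV5. They were taken as a list of symbols, and all 10 were found among the 26485 symbols of the count table and had enough reads to be tested. RNA was sequenced from PC-9, an EGFR-mutant line of human lung adenocarcinoma. There were 3 samples with a stable control vector (shControl) and 3 samples with a stable shRNA against IFITM3 (shIFITM3). The table's columns name the control ShEV, and which kind of control vector that was is not stated in the labels. Neither the number of hairpins nor whether a population was 1 clone is stated in the labels, which name no drug. The labels call the 3 samples of each group biological replicates, and do not say whether they came from separate transductions.

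In the ERK pathway, an active receptor such as EGFR loads RAS with GTP, and RAS starts a chain of kinases (RAF, MEK, ERK) whose last member enters the nucleus and changes transcription. Among the genes turned on are brakes on the same chain. DUSP proteins of this group remove the activating phosphates from ERK, Sprouty proteins act between receptor and RAF, and SPRED proteins bring the RAS inhibitor neurofibromin to the membrane. ETV4 and ETV5 are ETS factors that carry the signal on to further genes. In EGFR-mutant lung cancer cells the transcripts of several of these genes are widely used as a readout of ERK output.

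Depth was 77228760 total counts in shControl replicate 2 and 21342028 to 27493145 in the other 5 libraries. In CPM (read counts scaled to a common library size), IFITM3 measured 57.0, 60.5 and 62.7 in the control samples and 10.4, 12.9 and 9.75 in the knockdown samples, so the levels go with the labels. EGFR rose by 0.74 on the log2 scale, from 575 ± 23.3 to 958 ± 20.7 CPM (SD, n = 3). The 6 epithelial markers EPCAM, KRT8, KRT18, KRT19, CDH1 and CLDN4 were all present. Their summed level was 7348 to 7441 CPM in shControl and 5996 to 6219 CPM in shIFITM3. KRT8, KRT18 and CDH1 fell (CDH1 from 177 ± 2.05 to 117 ± 2.72 CPM), and CLDN4 rose from 321 ± 7.12 to 438 ± 13.9 CPM. The groups overlapped for EPCAM (log2 fold change 0.09, edgeR adjusted p = 0.0225) and KRT19 (0.03, edgeR adjusted p = 0.366). Of 9 markers of leukocytes, endothelium and fibroblasts 5 (PTPRC, CD3E, VWF, COL3A1 and PDGFRB) lay below 0.5 CPM on average over the 6 libraries, none was at 0 in all 6, and the list's summed level was 75.4 to 83.0 CPM in shControl and 84.8 to 93.3 CPM in shIFITM3. Most of that sum was CD68, a lysosomal protein gene, at 65.7 ± 4.21 and 75.9 ± 2.93 CPM. Within the list the endothelial marker PECAM1 fell from 2.69 ± 0.36 to 0.842 ± 0.0905 CPM, and the smooth muscle actin gene ACTA2 rose from 0.307 ± 0.175 to 0.797 ± 0.143 CPM. The collagen gene COL1A1 was at 9.55 ± 0.841 and 11.5 ± 1.74 CPM, with overlapping groups (edgeR adjusted p = 0.0381). The part of these markers in the results was not tested.

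The question of the comparison is whether transcripts of the ERK feedback genes differ between control cells and cells with reduced IFITM3. Of the 10 genes, 9 rose in shIFITM3 and 0 fell, no estimate being below 0 (quasi-likelihood test of edgeR, with a Benjamini-Hochberg threshold of 0.05 over 14018 tested genes). Among all tested genes 56.1% passed by the same rule, 27.7% as rises and 28.4% as falls. SPRED1 was the gene that did not pass. In these bulk libraries, more expressing cells and more RNA per cell cannot be told apart. The median log2 fold change of the 10 genes was 0.71, against 0.00 over all tested genes, and the values ran from 0.08 for SPRED1 to 1.05 for DUSP6. The list was chosen with earlier results of these data known, so its contrast with all tested genes is a description, not a test. The levels of the groups did not overlap for any of the 10, each lying higher in all 3 shIFITM3 samples, which was so for 30.1% of tested genes, while 30.8% lay lower in all 3.

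**Figure D1:**
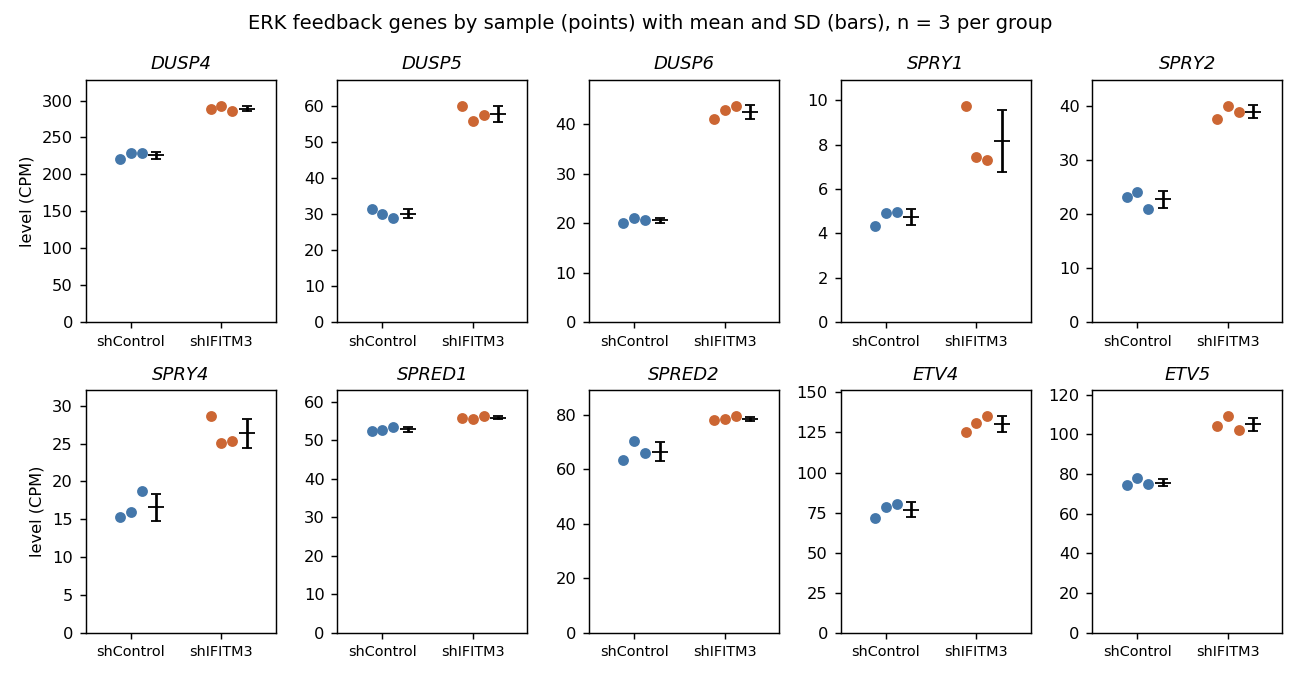
Level of each of the 10 genes in CPM (vertical axes, starting at 0) in the 3 shControl and 3 shIFITM3 samples (points), with the group mean and SD beside them. DUSP6 went from between 20.0 and 21.0 CPM to between 41.1 and 43.8 CPM, while SPRED1 lay between 52.3 and 56.2 CPM in all 6 samples.

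A stricter test asked which genes changed by more than 1.5-fold. DUSP5, DUSP6, SPRY2 and ETV4 passed it, 4 of the 10, where 5.76% of all tested genes passed upwards and 2.20% downwards. Without shControl replicate 3 or shIFITM3 replicate 2, SPRY2 no longer passed the 1.5-fold test (edgeR adjusted p = 0.138 and 0.0693, against 0.0191 with all samples).

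**Figure D2:**
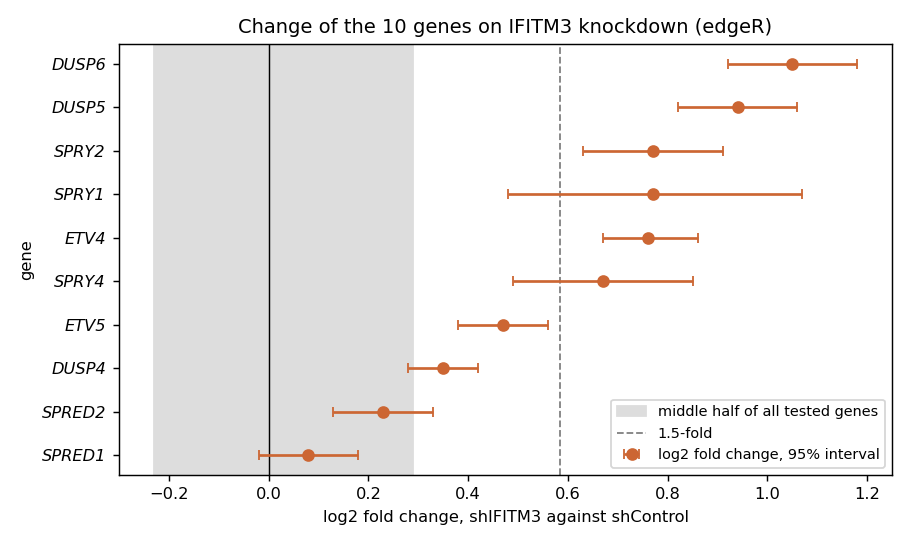
Log2 fold change of shIFITM3 against shControl (horizontal axis) for each gene (vertical axis), with its 95% interval from the edgeR fit. The grey band runs from the lower to the upper quartile of all tested genes (-0.23 to 0.29), the dashed line marks 1.5-fold, and DUSP6 and DUSP5 lie furthest right.

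Among the phosphatase genes, DUSP6 and DUSP5 about doubled, and DUSP4 rose least. DUSP6 (gene ID 1848, chromosome 12, 89347235 to 89352501, minus strand, GRCh38) encodes the cytoplasmic phosphatase that acts mainly on ERK. The 3 control samples, in the order of their numbers, held 425, 1620 and 565 reads of it, or 20.0, 21.0 and 20.6 CPM. The knockdown samples held 904, 987 and 1047 reads, or 41.1, 42.9 and 43.8 CPM. Every knockdown sample thus lay far above every control sample, and the samples of each group lay close together. The change was 2.06-fold, a log2 fold change of 1.05 (adjusted p = 9.6e-13 by edgeR, SE 0.0633). Of all tested genes 4.57% had a larger log2 fold change.

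DUSP5 (gene ID 1847, chromosome 10, 110497907 to 110511533, plus strand) encodes the nuclear ERK phosphatase, which also holds ERK in the nucleus. It was at 31.4, 30.0 and 29.0 CPM in shControl and 60.0, 55.7 and 57.3 CPM in shIFITM3, a 1.92-fold change (log2 0.94, SE 0.0563, edgeR adjusted p = 7.82e-13). Its processed copy DUSP5P1 had between 0 and 2 counts in each library. DUSP4 (gene ID 1846, chromosome 8, 29333064 to 29350684, minus strand) encodes a nuclear phosphatase of ERK and other MAP kinases. It was the most abundant of the 10 in CPM, at 221, 229 and 229 CPM in shControl and 288, 293 and 286 CPM in shIFITM3. The groups were apart in all 6 samples, with a smaller 1.28-fold rise (log2 0.35, SE 0.0326, edgeR adjusted p = 2.16e-09).

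The 3 Sprouty genes rose between 1.59-fold and 1.71-fold. SPRY2 (gene ID 10253, chromosome 13, 80335976 to 80341126, minus strand), the family member best known as an EGFR-induced inhibitor that binds the ubiquitin ligase CBL, was at 23.2, 24.0 and 20.9 CPM in shControl. In shIFITM3 its values were 37.6, 40.0 and 38.9 CPM, a rise of 0.77 on the log2 scale (adjusted p = 8.88e-10 by edgeR, SE 0.0675). SPRY4 (gene ID 81848, chromosome 5, 142310430 to 142325021, minus strand), an inhibitor acting upstream of RAF, was at 15.3, 15.9 and 18.7 CPM in shControl and 28.6, 25.1 and 25.4 CPM in shIFITM3. The lowest knockdown sample of SPRY4 still lay above the highest control sample, and its log2 fold change was 0.67 (SE 0.0858, edgeR adjusted p = 4.48e-07). SPRY1 (gene ID 10252, chromosome 4, 123396795 to 123403760, plus strand), a brake on growth factor receptors in development, was the scarcest of the 10. Control samples held 92, 379 and 136 reads of it (4.33, 4.92 and 4.96 CPM) and knockdown samples 215, 171 and 175 reads (9.76, 7.43 and 7.32 CPM). One knockdown sample, shIFITM3 replicate 1, was well above the other 2, and the error of the log2 fold change of 0.77 was the widest of the 10 (SE 0.142, 95% interval 0.48 to 1.07, edgeR adjusted p = 5.92e-05). Without that sample the log2 fold change of SPRY1 was 0.63, and it still passed.

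The SPRED genes had the smallest estimates. SPRED2 (gene ID 200734, chromosome 2, 65307175 to 65432599, minus strand), whose product inhibits RAS-to-RAF signalling, was at 63.6, 70.5 and 65.9 CPM in shControl and 78.1, 78.5 and 79.5 CPM in shIFITM3. This rise was 1.18-fold (log2 0.23, SE 0.0475, edgeR adjusted p = 0.0002), and 28.9% of tested genes had a larger log2 fold change. SPRED1 (gene ID 161742, chromosome 15, 38252836 to 38357249, plus strand), the gene mutated in Legius syndrome, was at 52.3, 52.6 and 53.4 CPM in shControl. In shIFITM3 it was at 55.8, 55.6 and 56.2 CPM. Although these ranges do not overlap, the log2 fold change of 0.08 was not distinguished from 0 by the fit (SE 0.0483, 95% interval -0.02 to 0.18, edgeR adjusted p = 0.153).

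Both PEA3 factor genes rose. ETV4 (gene ID 2118, chromosome 17, 43527846 to 43546340, minus strand), an ETS activator linked to invasion genes such as matrix metalloproteases, was at 71.5, 78.3 and 80.3 CPM in shControl and 125, 131 and 135 CPM in shIFITM3. The 1.70-fold change (log2 0.76, SE 0.0465, edgeR adjusted p = 1.13e-12) set all knockdown samples above all control samples. ETV5 (gene ID 2119, chromosome 3, 186046314 to 186109089, minus strand), its close relative, was at 74.2, 77.8 and 75.2 CPM in shControl and 104, 109 and 102 CPM in shIFITM3, a 1.38-fold change (log2 0.47, SE 0.0434, edgeR adjusted p = 2.16e-09). In the exons of GENCODE release 29, 3 of the 10 genes overlap an exon of another gene: DUSP6 an antisense RNA, ETV4 the gene DHX8 on the opposite strand, and ETV5 the gene DGKG on the same strand. DHX8 had 1324 to 5398 counts and DGKG 815 to 3036 counts per library, and how reads in the shared stretches were assigned is not stated in the labels.

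**Figure D3:**
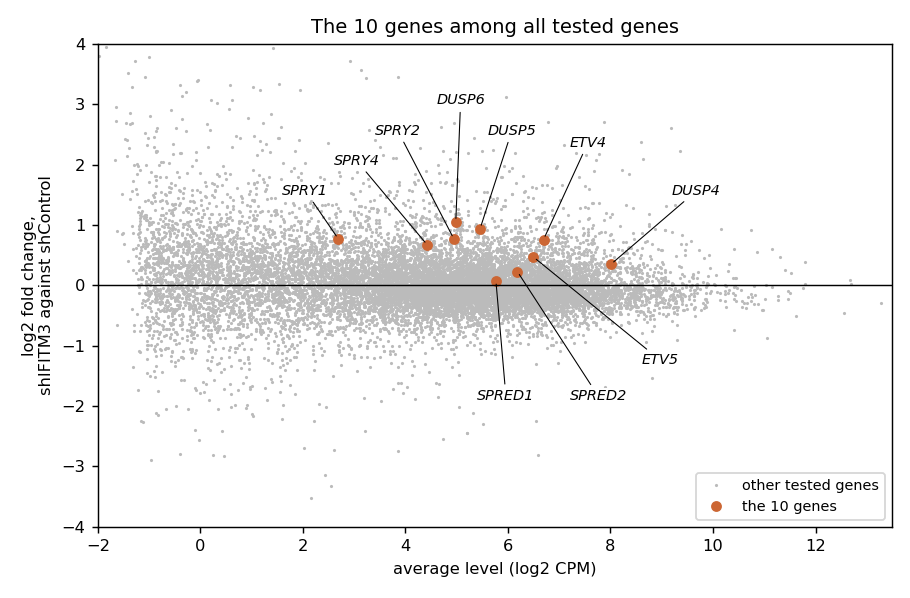
Average level in log2 CPM (horizontal axis) against log2 fold change (vertical axis) for all tested genes (grey) and the 10 genes (orange, labelled). All 10 lie above 0, within the cloud of tested genes, and 14 tested genes fall outside the axes.

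Because each pair ratio within a family is taken inside a library, it does not depend on how libraries were scaled. In 4 of 8 pairs the ratios of the groups did not overlap. Of these, DUSP4/DUSP5 and DUSP4/DUSP6 share DUSP4. How often ratios of other gene pairs overlap was not computed. Of single tested genes 30.1% lay higher and 30.8% lower in all 3 shIFITM3 samples than in any control sample. The log2 ratio of DUSP4 to DUSP6 counts was 3.47, 3.44 and 3.48 in shControl and 2.81, 2.77 and 2.71 in shIFITM3, lower in every knockdown sample than in any control sample. For DUSP4 to DUSP5 it averaged 2.91 in shControl and 2.33 in shIFITM3. Neither of these ratios overlapped between the groups. The ratio of ETV4 to ETV5 was -0.05, 0.01 and 0.10 in shControl and 0.26, 0.27 and 0.41 in shIFITM3. That of SPRED1 to SPRED2 was -0.28, -0.42 and -0.30 in shControl and -0.48, -0.50 and -0.50 in shIFITM3. Each of these 4 pairs gave p = 0.1 in a two-sided exact permutation test, the smallest that 3 against 3 samples allow, and 0.2 adjusted over the 8 pairs. None can therefore pass a threshold of 0.05.

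For the other 4 pairs the groups overlapped. The ratio of DUSP5 to DUSP6 averaged 0.55 ± 0.087 in shControl and 0.44 ± 0.0956 in shIFITM3 (SD, n = 3 each, two-sided exact permutation p = 0.3). Among the Sprouty genes the log2 ratio of SPRY1 to SPRY2 averaged -2.26 in both groups, that of SPRY1 to SPRY4 differed by 0.11 and that of SPRY2 to SPRY4 by 0.11 (exact permutation p = 1.0, 0.4 and 0.5). With 3 samples a group these values do not show that the Sprouty genes changed equally.

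**Figure D4:**
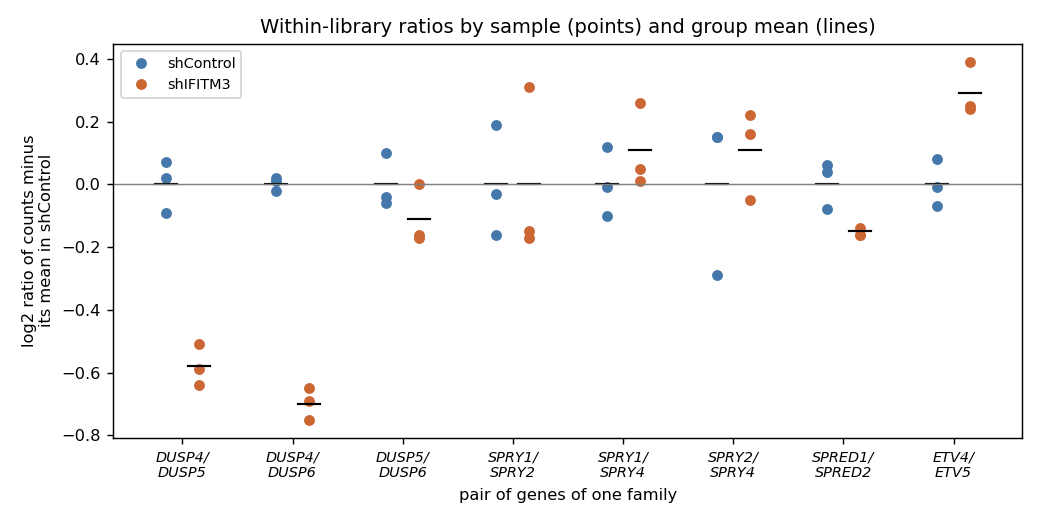
Log2 ratio of the counts of 2 genes of one family in each library, minus its mean in shControl (vertical axis), for 8 pairs (horizontal axis), with points for samples and lines for group means. The ratios of DUSP4 to DUSP5 and DUSP6 were lower in all 3 shIFITM3 samples, and the 3 Sprouty pairs overlapped.

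To compare levels between genes, CPM was divided by the exon length of each gene in GENCODE release 29 (giving RPKM). In shControl the order from the top was DUSP4 at 31.2 ± 0.63 RPKM, ETV4 at 27.4 ± 1.65, ETV5 at 17.5 ± 0.431, SPRED2 at 16.0 ± 0.841 and DUSP5 at 11.8 ± 0.485 RPKM (SD, n = 3). Below them came SPRY2 at 7.47 ± 0.532 RPKM, SPRED1 at 6.78 ± 0.0765, DUSP6 at 4.52 ± 0.112, SPRY4 at 3.34 ± 0.362 and SPRY1 at 1.57 ± 0.116 RPKM. No 2 neighbours in this order overlapped over the samples. In shIFITM3 the order changed at 3 places. ETV4 (46.5 ± 1.78 RPKM) stood above DUSP4 (39.9 ± 0.497), DUSP5 (22.6 ± 0.858) above SPRED2 (18.9 ± 0.177), and DUSP6 (9.37 ± 0.306) above SPRED1 (7.18 ± 0.0392). The neighbours did not overlap here either. When the longest transcript was used as the length, the orders of the levels stayed as given, but ETV4 and DUSP4 overlapped in shIFITM3. Thus DUSP6 had the largest fold change, and the largest difference in level was that of ETV4, 19.2 RPKM, with DUSP5 next at 10.8 RPKM and DUSP4 at 8.65 RPKM. Per longest transcript DUSP4 (40.9 and 52.2 RPKM in shControl and shIFITM3) came second instead, ahead of DUSP5 (11.8 and 22.6 RPKM).

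RefSeq promoter windows (250 bases before to 50 after a transcript start, GRCh38.p14) were at hand for 6 of the 10 genes, as 10 windows. They are shown for DUSP6, which rose most, for the Sprouty gene with a single window, SPRY4, and for SPRED1, which did not pass, as the 250 bases upstream of the start, 5′ to 3′ on the gene's strand. They lie at chr12:89352502-89352751, minus strand for DUSP6, at chr5:142324248-142324497, minus strand for SPRY4 and at chr15:38252586-38252835, plus strand for SPRED1. The SPRY4 stretch lies inside the span given above for that gene, so its start is downstream of the gene's first base. Those of DUSP6 and SPRED1 adjoin the spans of their genes.
DUSP6: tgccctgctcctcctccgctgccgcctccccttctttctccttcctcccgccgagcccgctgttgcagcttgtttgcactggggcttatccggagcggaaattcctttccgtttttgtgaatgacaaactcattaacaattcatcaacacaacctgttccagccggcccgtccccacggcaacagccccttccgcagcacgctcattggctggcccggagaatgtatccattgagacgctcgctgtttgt
SPRY4: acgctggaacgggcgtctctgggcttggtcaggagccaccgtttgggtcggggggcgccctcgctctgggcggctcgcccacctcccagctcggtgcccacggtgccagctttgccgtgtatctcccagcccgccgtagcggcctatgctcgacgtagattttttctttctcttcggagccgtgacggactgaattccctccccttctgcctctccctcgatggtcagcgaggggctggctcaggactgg
SPRED1: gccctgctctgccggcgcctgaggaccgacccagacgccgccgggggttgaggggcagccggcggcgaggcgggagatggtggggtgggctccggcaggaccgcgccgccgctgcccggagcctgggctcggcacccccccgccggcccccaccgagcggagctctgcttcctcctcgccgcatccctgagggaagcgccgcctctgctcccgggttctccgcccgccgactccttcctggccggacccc
Capitals would mark an exact match to 5 motifs searched on both strands, and these stretches hold none of those letters. The motifs were the octamers TGAATGAA and TGAATGGA, bound by the repressor CIC, and TGANTCA for AP-1, with any base allowed at N. The others were the cyclic AMP response element TGACGTCA and CCGGAAGT, 1 form of the ETS site. Other forms of these sites were not searched, so the lack of a match does not show the lack of a site. Among those left out are CIC octamers with C as the second base, and the DUSP6 stretch holds such letters on the other strand (tccattga). Over all 35116 RefSeq windows the shares with a match were 1.65%, 1.03%, 7.71%, 1.85% and 4.14% in that order. Of the 10 windows of these genes 1 held a match. It was the downstream start of SPRED2, with TGACTCA at position -6 and TGAATCA at position 35, counted from the first transcribed base as 1. Both match TGANTCA, but TGAATCA has A at N, where the usual AP-1 site has C or G. These are matches of letters in a short window and carry no measurement of binding. The windows also differed in base composition, from 39.3% G and C at that SPRED2 start to 76.3% at SPRED1.

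Genes of the kinase chain above them changed in both directions. Of 17 tested genes from the adaptor GRB2 to the ERK kinases, 4 rose (23.5%) and 7 fell, with a median log2 fold change of -0.10. Of all tested genes 27.7% rose and 28.4% fell. In the 1.5-fold test 0 of the 17 passed upwards and 0 downwards, against 5.76% and 2.20% of all tested genes. MAP2K2, which encodes the kinase MEK2, fell from 137 ± 2.36 to 101 ± 3.97 CPM (log2 -0.43, edgeR adjusted p = 2.94e-09). The kinase gene ARAF fell by 0.38 on the log2 scale. The adaptor gene GAB1 (0.32), the RAS exchange factor gene SOS2 (0.32) and the adaptor gene SHC1 (0.11) rose.

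Other MAP kinase phosphatase genes were also mostly higher. Of 7 tested, 5 rose (71.4%) and 1 fell, and their median log2 fold change was 0.61. The shares over all tested genes were 27.7% for rises and 28.4% for falls. DUSP10, whose product acts on p38 and JNK, rose from 9.26 ± 0.341 to 27.2 ± 1.71 CPM (log2 1.56, adjusted p = 2.13e-13 by edgeR, SE 0.0872), more than any of the 10 genes by estimate. DUSP7 (0.61), a cytoplasmic ERK phosphatase gene, and DUSP1 (0.70), an immediate early phosphatase gene, rose too. DUSP8, chosen after its values were seen, rose from 2.44 ± 0.456 to 7.16 ± 0.358 CPM (1.59). DUSP9 had 18 to 98 counts per library and was lower (-0.74, edgeR adjusted p = 0.0448). That call ended with DESeq2 (adjusted p = 0.061), limma-voom (0.0884) and the replicate block (0.051). It also ended without shControl replicate 1 or 3 (0.117 and 0.127) or shIFITM3 replicate 1, 2 or 3 (0.0568, 0.0655 and 0.164).

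Among 9 other inhibitors of receptor, RAS or ERK signalling 5 rose (55.6%) and 1 fell, with a median of 0.25. Over all tested genes the shares were 27.7% for rises and 28.4% for falls. IL17RD, which encodes the FGF and ERK pathway inhibitor SEF, rose from 14.8 ± 1.58 to 30.7 ± 2.11 CPM (log2 1.05, SE 0.0837, edgeR adjusted p = 1.4e-10), by estimate as much as DUSP6. RASA1 (0.39), a RAS GTPase-activating protein gene, and ERRFI1 (0.41), whose product binds and inhibits EGFR, rose. NF1, which encodes the neurofibromin that SPRED proteins recruit, fell (-0.19). The third Sprouty-related gene SPRED3 (log2 0.25, edgeR adjusted p = 0.274) and SPRY3 (-0.18, 0.431) were low and did not pass.

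Other genes known as ERK outputs included rises and falls. Of 11 tested, 6 rose (54.5%) and 3 fell, and the median was 0.22. By the same rule 27.7% of all tested genes rose and 28.4% fell. HBEGF, an EGFR ligand gene, rose by 1.54 on the log2 scale, LIF by 0.96 and IER3 by 0.70. FOS, an immediate early AP-1 gene, was at 13.0, 11.4 and 10.8 CPM in shControl and fell to 8.13, 7.43 and 7.95 CPM in shIFITM3 (-0.57, edgeR adjusted p = 0.000107). EGR1, another immediate early gene, was at 11.2, 17.4 and 16.0 CPM in shControl and 11.4, 12.5 and 11.7 CPM in shIFITM3, ranges that overlap. Its call (-0.35, edgeR adjusted p = 0.0165) ended without shControl replicate 2, shControl replicate 3 or shIFITM3 replicate 1 (0.204, 0.0589 and 0.0521). Without shControl replicate 2 its log2 fold change was -0.21. EPHA2, a receptor gene, fell by 0.29. PHLDA1 (0.04, edgeR adjusted p = 0.431), often used in the same readouts as DUSP6 and ETV4, did not pass.

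**Figure D5:**
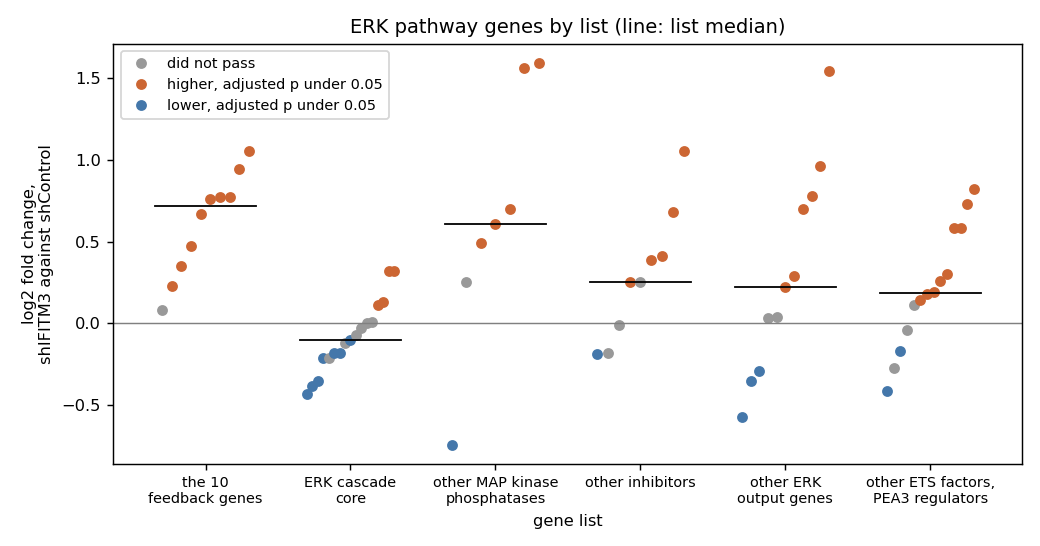
Log2 fold change (vertical axis) of each tested gene in 6 lists (horizontal axis), coloured by whether it passed the test upwards, downwards or not at all, with a line at each list's median. The 10 feedback genes have a median of 0.71 and the kinase cascade genes one of -0.10.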

How the data were processed

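One table of read counts by gene symbol, not normalized, was deposited by the authors. The submitters' processing notes list HISAT2 2.2.1 and featureCounts (Subread 2.0.6) on hg38, after quality control with fastp 0.23.4. Neither the annotation nor the strand setting is stated there. Per the labels' protocols, libraries were made with a stranded messenger RNA kit.

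Tests used edgeR 4.0.16 under R 4.3.3 (filterByExpr, TMM, glmQLFit on group, glmQLFTest, glmTreat at 1.5-fold), with Benjamini-Hochberg adjustment over 14018 genes and a threshold of 0.05. DESeq2 1.42.0 and limma 3.58.1 (voom) were alternatives. The SE is the absolute log2 fold change over the square root of F. A count of 0 allows 3 counts, 0.039 to 0.141 CPM, for counting error only. The script was tested on simulated data. The members and lists were chosen with earlier results of these data known. Other genes named are up to 3 per list and direction with the smallest p among those that passed, the 3 most like DUSP6, IFITM3 and EGFR. Some genes that this rule takes are not reported here. A few others, given with their values, were chosen after these were seen.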

Additional observations from a re-analysis of the deposited data

How the results depend on the processing

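Across 15 other settings (scaling by RLE, by upper quartile or by total count, a filter of 50 counts in 3 samples or none, DESeq2, limma-voom, a replicate block, a thinned shControl replicate 2 and leaving out each sample) the count of the 10 genes that rose stayed at 9 and of those that fell at 0. All genes called higher numbered 3885 and lower 3985 with all samples, and ranged from 3560 to 3736 and from 3564 to 3844 over the left-out samples. Their balance moved with the scaling: 3990 higher and 3823 lower by total count, 3695 higher and 4261 lower by upper quartile. The 1.5-fold test, which DESeq2 and limma-voom were not used for, gave 4 genes, or 3 to 4 with a sample left out. With the replicate number as a block 9 of the 10 genes rose. Same-numbered samples deviated from their group means with correlations of 0.0157, 0.033 and 0.00634 across genes, so the numbers were not taken as pairs.

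The difference in log2 ratio of SPRY1 to SPRY2, near 0 with all samples, was 0.09 without shControl replicate 3, 0.08 without shIFITM3 replicate 2 and 0.07 without shIFITM3 replicate 3, and ran from -0.16 to 0.09. That of SPRY2 to SPRY4 was -0.04 without shControl replicate 3 and ran up to 0.19. The cause was not tested. Among the 10 genes, SPRY1 had the fewest counts and the widest error. The edgeR p-values rest only on the spread between these samples, and each gene's spread is estimated partly from that of the other genes. The exact permutation p-values compare only relabellings of these samples.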

Other observations

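Of 14 tested other ETS factors and regulators of the PEA3 proteins 9 rose and 2 fell, with a median log2 fold change of 0.19. Rises made up 64.3% of this list and 27.7% of all tested genes, and falls 28.4% of all tested genes. ETV1, the third PEA3 gene, was chosen after its values were seen. It was at 4.19, 4.88 and 4.23 CPM in shControl and 9.85, 6.74 and 7.32 CPM in shIFITM3 (log2 fold change 0.82, SE 0.151, edgeR adjusted p = 6.06e-05), so the 3 PEA3 genes all rose. ELK3 (0.73), ETS1 (0.58) and the gene of the repressor CIC (0.58), which is known to silence PEA3 genes until ERK inactivates it, rose as well. CIC was at 74.2, 77.4 and 72.4 CPM in shControl and 108, 114 and 113 CPM in shIFITM3. ETS2 fell (-0.41). COP1, listed under its older symbol RFWD2, encodes a ubiquitin ligase that degrades PEA3 proteins and was lower (-0.17, edgeR adjusted p = 0.0121), a call that ended without shControl replicate 2 (0.0804).

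CHIC2 and TMED4 were among the 3 tested genes whose 6 log2 CPM values, each taken from the gene's own shControl mean, lay closest to those of DUSP6. Genes under an average of 2 in log2 CPM were not ranked. CHIC2 went from 6.28 ± 0.304 to 13.1 ± 0.813 CPM and TMED4 from 63.5 ± 3.07 to 133 ± 6.04 CPM, each a log2 fold change of 1.06. With 2 groups, such a ranking mostly finds genes of equal fold change.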
